A study of Macaca mulatta with 2 samples.

Results

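The 7 genes described here have a role in sensing viral RNA or in interferon signalling, and were followed across the layers of the macaque posterior eye. They were taken by gene symbol from the deposited feature list, where DHX58, DDX60, OAS1, OAS3, CMPK2, IRF7 and IFNAR2 each had 1 row, so the group holds 7 of 26533 features. Their values come from 2 Visium sections of *Macaca mulatta* eyecup, 1 per animal, in which barcoded spots under a tissue section capture polyadenylated RNA and each captured molecule is counted once by its unique molecular identifier (UMI). NHP1 was a wild-type male of 5 years that received AAV2-CAG-hRPE65, a vector with a ubiquitous promoter, under the retina of both eyes. NHP2 was a wild-type male of 6 years that received AAV8-GRK1-mScarlet and AAV8-GRK1-hRPGR, both driven by a photoreceptor promoter, in separate blebs of each eye. Both sections are uninjected areas of right eyes, cut at 10 µm from 4 mm full-thickness punches taken outside the blebs. Neither punch came from an animal that had received no vector, and per the study's methods the surgery included a periocular steroid, triamcinolone, while adalimumab was given to left eyes only. Since animal, vector given elsewhere in the eye, library and depth each differ between the sections, they cannot be told apart.

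Cells detect viral RNA through cytoplasmic helicases of the RIG-I family and respond by secreting interferons. Type I interferon binds the receptor IFNAR1-IFNAR2, and the kinases JAK1 and TYK2 then act on transcription factors, among them STAT2 and IRF9, which switch on genes through an interferon-stimulated response element (ISRE). In this set DHX58 (LGP2) is a RIG-I family helicase that regulates the other sensors, and DDX60 is a helicase linked to the same sensing. OAS1 and OAS3 make 2-5A oligonucleotides on double-stranded RNA, which switch on RNase L, while CMPK2 is a nucleotide kinase induced by interferon. IRF7 is the transcription factor that amplifies interferon production, and IFNAR2 is a receptor chain.

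The 7 genes lie on 6 chromosomes of the Mmul_10 assembly, as annotated by RefSeq. DHX58 spans chr16:53222476-53233857 on the minus strand, DDX60 chr5:165570583-165675948 on the minus strand, IRF7 chr14:668505-672316 on the minus strand and IFNAR2 chr3:13289046-13325302 on the minus strand. CMPK2 spans chr13:101909431-101926277 on the plus strand, beside RSAD2. OAS1, at chr11:112632314-112654759, and OAS3, at chr11:112661047-112689871, are neighbours on the plus strand, with OAS2 next to OAS3. In RefSeq DDX60 overlaps its paralog DDX60L on the same strand. If the gene models used for counting overlap too, reads in the shared stretch could not be assigned with certainty, which was not checked. DDX60L itself had 0 and 1 UMIs. The ISRE core was searched as GAAA, any 2 bases and GAAA again, or TTTC, any 2 bases and TTTC when read on the other strand, in the 250 bases before every annotated transcript start. It was present for 3 of the 7 genes, compared with 5.42% of 20782 gene promoters searched in the same way. The 3 stretches are shown because they are where the letters of the interferon element occur in this group, each printed 5′ to 3′ on the gene's own strand with the matching letters in capitals.
DHX58: ccctcagTTTCAGTTTCCATTTCcgatttc
DDX60: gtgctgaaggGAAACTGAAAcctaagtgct
OAS1: tttgcaaaagGAAAATGAAAagacggctcc
The DHX58 stretch, chr16:53233830-53233859 on the minus strand, holds 2 overlapping matches and precedes a transcript start that lies 157 bases inside the gene. The DDX60 stretch is chr5:165675967-165675996 on the minus strand, with the match 29 bases from the only annotated start, and that of OAS1 is chr11:112632451-112632480 on the plus strand, before a start 273 bases inside the gene. A match describes the letters in a window and is not evidence of binding.

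The NHP1 section had 534 tissue spots with 1484784 UMIs (median 1473.5 per spot) and the NHP2 section 470 with 805726 UMIs (median 370.5). A gene at 0 in the tissue could have been present at up to 3 UMIs, which is 0.0202 per 10000 UMIs in NHP1 and 0.0372 in NHP2. Each tissue spot was given a layer by the marker class with the highest relative share in it. The neural retina (photoreceptor, inner nuclear and ganglion classes) took 316 spots in NHP1 and 72 in NHP2, and the outer layers (retinal pigment epithelium (RPE), choroid and sclera) 164 and 194. The remaining 54 and 204 spots, the latter with a median of 30 UMIs, had too few marker UMIs for a layer. A second class came within 1.5 times of the first in 29.6% of the assigned spots in NHP1 and 24.1% in NHP2, so the layers are ranges of mixed spots and not pure cell types. All 10 RPE markers were at least 1.5 times higher in the RPE spots than in the rest of the section in both animals. Of 20 inner nuclear markers, 13 were so in NHP1 and 11 in NHP2, which the rule for the classes itself favours. Choroid spots of NHP2 held only 19729 UMIs in all.

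DHX58, the RNA-sensing helicase, had 22 UMIs in NHP1 and 170 in NHP2, that is 0.148 per 10000 UMIs (95% interval 0.0929 to 0.224) and 2.11 (1.80 to 2.45). It was detected in 22 tissue spots of NHP1, never with more than 1 UMI, and in 60 spots of NHP2, with up to 16. The level in NHP2 was 14.2 times that in NHP1 (9.10 to 23.3), and the intervals of the levels did not overlap. Intervals cover counting error only, and with 1 section per animal no test was possible. In bulk spots, fewer cells of a type and less RNA per cell cannot be told apart.

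OAS3 and CMPK2 were also higher in NHP2. OAS3 had 16 UMIs in NHP1 and 71 in NHP2 (0.108 and 0.881 per 10000), a ratio of 8.18 (4.71 to 15.1). CMPK2 had 11 and 71 UMIs (0.0741 and 0.881 per 10000), a ratio of 11.9 (6.26 to 24.9). Both genes rested on more spots in NHP2, 33 against 15 for OAS3 and 25 against 10 for CMPK2. DDX60 had 1 UMI in NHP1 and 18 in NHP2 (0.00673 and 0.223 per 10000), which gives a ratio of 33.2 with the wide interval of 5.24 to 1382. As a mean over spots with at least 200 UMIs the ratios were smaller for DHX58 (5.93), OAS3 (2.99) and CMPK2 (4.38) and larger for DDX60 (56.6).

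IRF7, the transcription factor, had 13 UMIs in NHP1 and 30 in NHP2 (0.0876 and 0.372 per 10000), a ratio of 4.25 (2.15 to 8.88), which was 7.88 (3.31 to 21.6) without the 5 spots of each section with the most UMIs of the group. The receptor chain IFNAR2 had 17 and 8 UMIs (0.114 and 0.0993 per 10000), and its ratio of 0.867 had an interval of 0.324 to 2.12 on either side of equality. OAS1 had 1 UMI in each section, so its level could not be compared at this depth. Summed over the 7 genes, NHP1 had 81 UMIs and NHP2 369 (0.546 and 4.58 per 10000), a ratio of 8.39 (6.58 to 10.8). It was 3.84 as a mean over spots with at least 200 UMIs.

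Among the 7, 6 genes had at least 10 UMIs over both sections, and 5 of these were at least 2-fold higher in NHP2, while 7.12% of 9996 genes that met the minimum were as much higher. None was at least 2-fold lower, beside 6.48% of all genes. With a minimum of 50 UMIs all 3 genes left, DHX58, OAS3 and CMPK2, were at least 2-fold higher, beside 3.59% of all genes. The group was proposed with this difference known, so the count describes the group and supports nothing. The median ratio was 10.0 for the 6 genes and 1.01 for all genes. Of all genes, 13 had a higher ratio than DDX60, 27 than DHX58, 34 than CMPK2, 57 than OAS3, 157 than IRF7 and 6809 than IFNAR2.

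**Figure D1:**
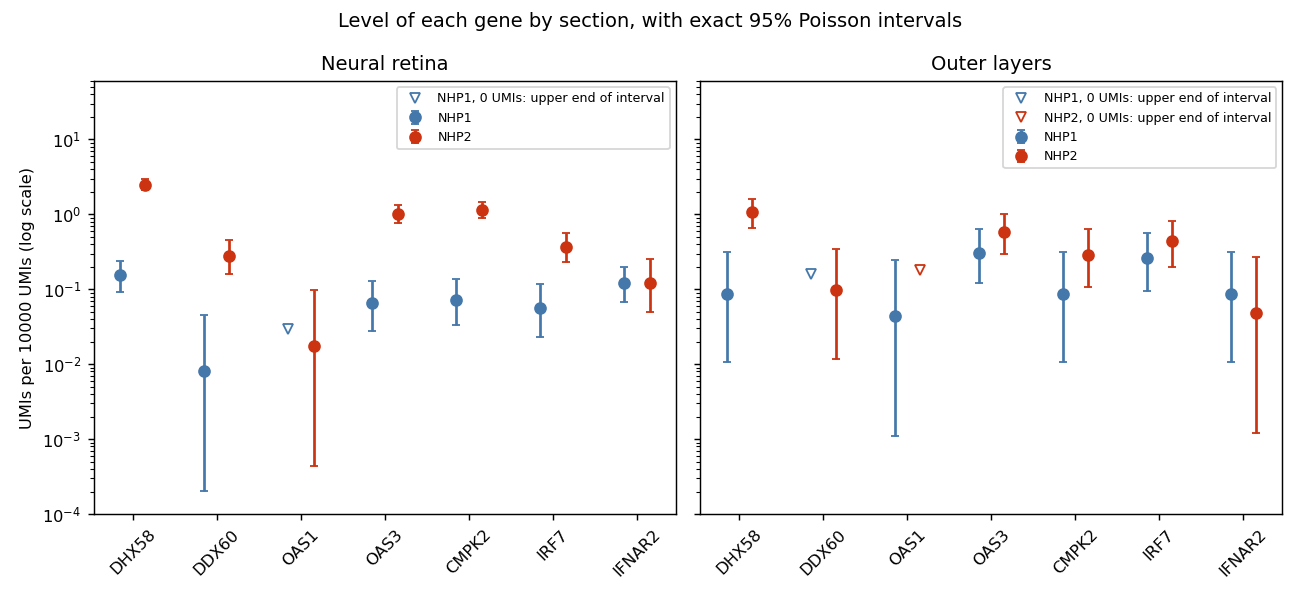
Level of each gene in UMIs per 10000 UMIs (log scale) in the neural retina (left) and the outer layers (right) of the NHP1 section (blue) and the NHP2 section (red), with exact 95% Poisson intervals; an open triangle is the upper end of the interval of a gene at 0 UMIs. In the neural retina the intervals of DHX58, DDX60, OAS3, CMPK2 and IRF7 are separate between the sections, and those of IFNAR2 overlap.

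Spots off the tissue were measured in the same way. In NHP1 they held 13 UMIs of the 7 genes (0.249 per 10000), and the tissue level was 2.20 times as high (1.21 to 4.30). In NHP2 they held 26 UMIs, which at their low depth is 3.38 per 10000, and the tissue level was only 1.35 times as high (0.910 to 2.1). DHX58 was the gene most often seen there in NHP2, with 13 UMIs or 1.69 per 10000, whereas in NHP1 it had 1. DDX60 in NHP2 tissue was under its off-tissue level (0.223 and 0.260 per 10000, ratio 0.859, 0.206 to 7.63). OAS3 in tissue was 1.13 times its off-tissue level (0.494 to 3.18), IRF7 1.43 times (0.363 to 12.4) and CMPK2 3.39 times (0.904 to 28.5). Thus for each of these genes in NHP2 the share of UMIs in tissue could not be separated from that in the off-tissue spots. The NHP2 off-tissue UMIs were found near the tissue and far from it, with 15 within 2 spot spacings (2.65 per 10000) and 11 farther away (5.43 per 10000). The off-tissue level of the sum in NHP2 had an interval of 2.21 to 4.95. The inner nuclear level described below lay above it, those of the ganglion, photoreceptor and RPE spots lay within it, and that of the sclera lay under it. For the sum, the levels of single layers that follow, other than the inner nuclear one, had intervals that overlapped that of the off-tissue level. The neural retina as a whole, at 5.43 per 10000 (4.84 to 6.07), lay above the off-tissue interval, though its own interval began within it. A share of UMIs does not tell where the RNA of a spot came from, so an equal share does not make the tissue level background. In NHP2 18.5% of tissue spots and 0.546% of off-tissue spots had a UMI of the group, at median depths of 370.5 and 4 UMIs. The part of depth in this was not tested. Whether the deposited tissue mark covers all tissue of that section was not tested.

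The ratio between the sections was 11.4 for the sum in the neural retina and 2.89 in the outer layers, a difference that was not tested. In the neural retina DHX58 had 19 UMIs in NHP1 and 141 in NHP2 (0.154 and 2.48 per 10000, ratio 16.1, 9.94 to 27.6). OAS3 had 8 and 58 UMIs (0.0647 and 1.02 per 10000, ratio 15.7, 7.48 to 38.2), and CMPK2 9 and 65 (0.0728 and 1.14, ratio 15.7, 7.77 to 35.8). DDX60 had 1 and 16 UMIs, and IRF7 7 and 21 (ratio 6.51, 2.67 to 18.1). IFNAR2 had 15 and 7 UMIs (0.121 and 0.123 per 10000, ratio 1.01, 0.349 to 2.64). For the sum the ratio was 11.4 (8.58 to 15.3), with 5 of 6 measurable genes past 2-fold beside 5.66% of 9409 genes.

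In the outer layers the 7 genes together had 20 UMIs in NHP1 and 52 in NHP2, a ratio of 2.89 (1.69 to 5.11). The level in NHP2, 2.52 per 10000, was under the 3.38 of its off-tissue spots. DHX58 had 2 and 22 UMIs there (ratio 12.2, 3.0 to 107), and its 1.06 per 10000 in NHP2 was under its off-tissue 1.69. For the others the interval of the ratio included equality or the UMIs were too few. OAS3 had 7 and 12 UMIs (ratio 1.90, 0.691 to 5.71), IRF7 6 and 9 (1.67, 0.529 to 5.69) and CMPK2 2 and 6 (3.33, 0.596 to 33.7). Of 3 genes that met the minimum, DHX58 alone was past 2-fold, beside 10.9% of 6420 genes.

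**Figure D2:**
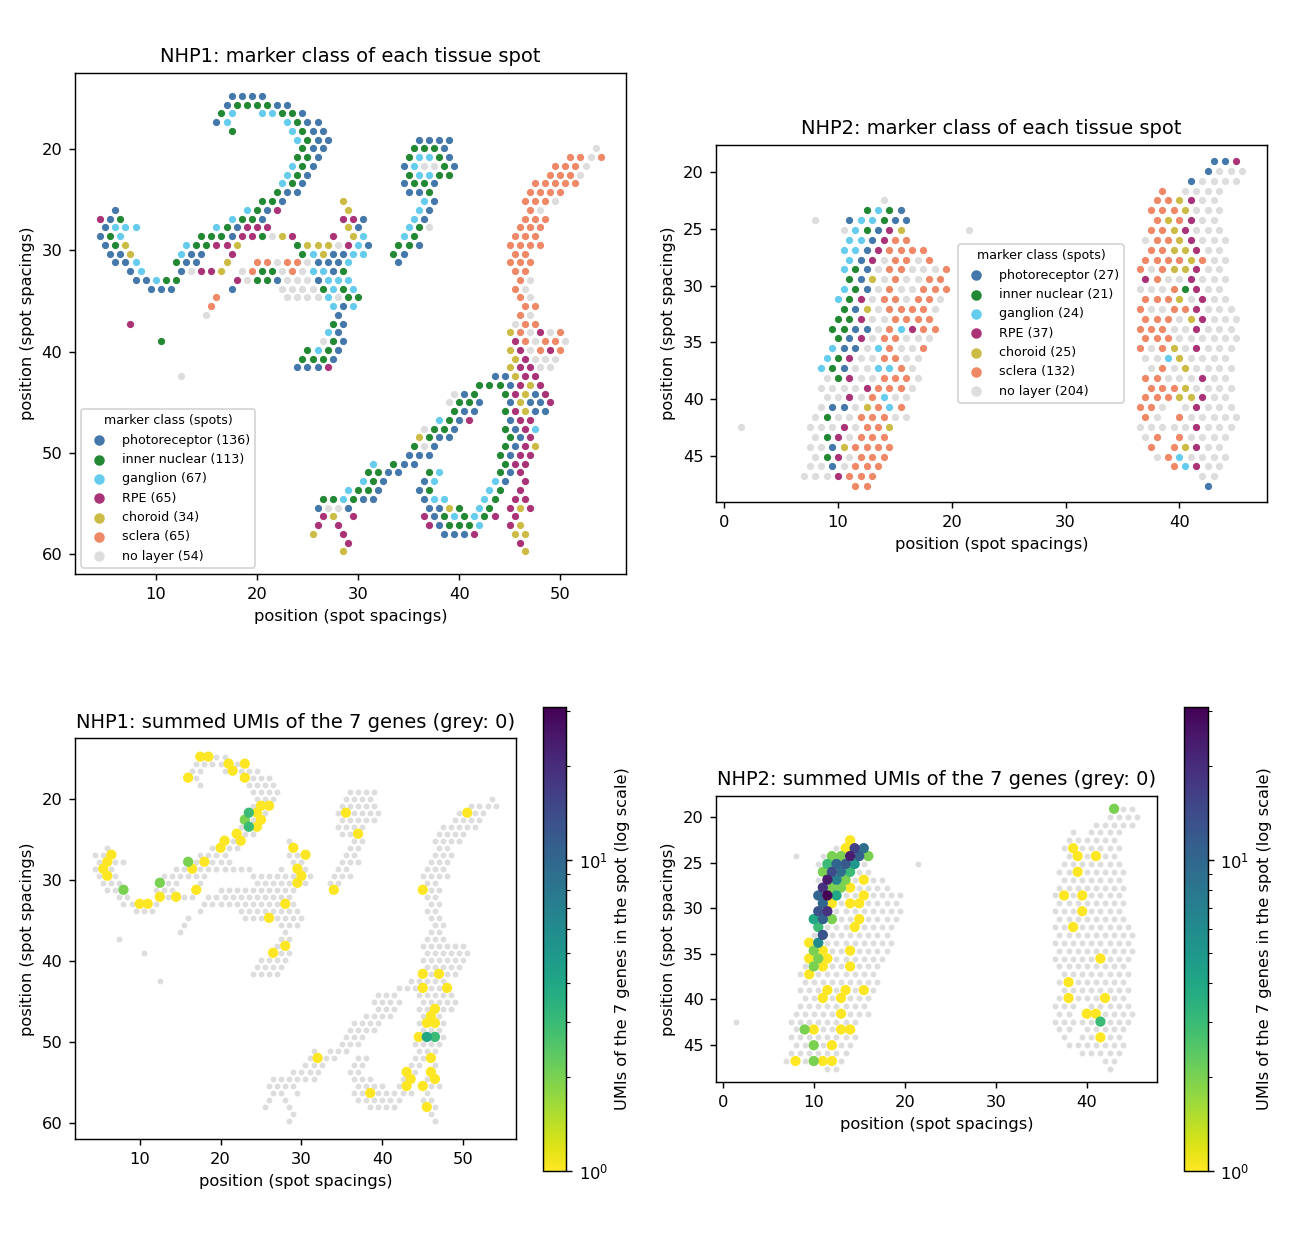
Tissue spots of both sections drawn to scale, with both axes in spot spacings; the upper maps colour each spot by its marker class and the lower maps by its summed UMIs of the 7 genes (log colour scale, grey for 0). In NHP2 the spots with the most UMIs, up to 31, lie along the retinal edge of 1 piece, whereas in NHP1 no spot holds more than 4.

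Within NHP2 the inner nuclear layer, which holds bipolar, amacrine and horizontal cells and the bodies of Müller glia, was the highest for most of the genes by marker class (21 spots). Their sum reached 7.79 per 10000 there (6.60 to 9.14), compared with 4.41 (3.57 to 5.40) in ganglion spots and 3.93 (3.02 to 5.03) in photoreceptor spots. The ratio of the inner nuclear level was 1.76 to the ganglion level (1.36 to 2.31) and 1.98 to the photoreceptor level (1.47 to 2.71). RPE spots stood at 4.47 (2.97 to 6.46), close to the ganglion layer (ratio 1.01, 0.640 to 1.56). Sclera spots had 1.77 (1.11 to 2.68), and the choroid, with 2 UMIs, could not be placed. Leiden regions, which group spots by like expression, gave no inner nuclear region in NHP2 at the higher resolution. There the photoreceptor region was at 5.58 (4.81 to 6.44) and the ganglion region with the most UMIs at 5.23 (4.42 to 6.15). These intervals overlap, but with no inner nuclear region they cannot show whether inner nuclear spots were higher. At the lower resolution 1 region of 74 spots, of the inner nuclear class, stood at 5.42 (4.86 to 6.04). It was the only NHP2 region there with a neural retina class. The inner nuclear peak thus rests on the marker classes alone.

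DHX58 in NHP2 had 62 UMIs in inner nuclear spots (3.20 per 10000), 37 in photoreceptor spots (2.31), 14 in RPE spots (2.24) and 42 in ganglion spots (1.95). Neighbours in this order did not separate, while the inner nuclear level was 1.64 times the ganglion level (1.09 to 2.49). Each of these 4 layers was above the sclera (7 UMIs, 0.563 per 10000), the ganglion layer by 3.47 times (1.54 to 9.15). In NHP1 the same gene had 6, 7, 1 and 6 UMIs in those layers, between 0.0850 and 0.199 per 10000, and no pair of layers could be separated.

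CMPK2 in NHP2 had 35 UMIs in inner nuclear spots (1.81 per 10000), 19 in ganglion spots (0.883) and 11 in photoreceptor spots (0.686). The inner nuclear level was 2.05 times the ganglion level (1.14 to 3.79) and 2.63 times the photoreceptor level (1.31 to 5.75). In NHP1 the photoreceptor spots had 0 UMIs of CMPK2. Against the limit of 3 UMIs the level in NHP2 was 10.8-fold higher, and the interval of the ratio began at 7.37. OAS3 in NHP2 differed from DHX58 in its order, with 30 UMIs in inner nuclear spots (1.55 per 10000) and 22 in ganglion spots (1.02) but only 6 in photoreceptor spots (0.374). The inner nuclear level of OAS3 was 4.14 times its photoreceptor level (1.69 to 12.2) but did not separate from its ganglion level (ratio 1.51, 0.845 to 2.75). The order of OAS3 against that of DHX58 was not tested. Between the sections, 4 of 5 measurable genes were at least 2-fold higher in the inner nuclear spots of NHP2 beside 7.52% of all genes, and IFNAR2 was the other. In photoreceptor spots DHX58, CMPK2 and IRF7 (3 of 3) were so beside 8.25%, and in ganglion spots DHX58, OAS3 and CMPK2 (3 of 3) beside 7.92%. In RPE spots DHX58 and IRF7 (2 of 2) were so, beside 10.3%.

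DDX60 in NHP2 had 11 of its 18 UMIs in inner nuclear spots (0.568 per 10000), 6.11 times its ganglion level (1.33 to 56.7). Its inner nuclear level did not separate from its photoreceptor level (ratio 3.03, 0.801 to 16.9) or its sclera level (3.53, 0.771 to 32.8). In NHP1 no inner nuclear spot held DDX60. Against the limit of 3 UMIs the level in NHP2 was 8.77-fold higher, and the interval of the ratio began at 6.00. IRF7 was highest in the RPE spots of both sections, at 4 UMIs in NHP1 (0.340 per 10000) and 7 in NHP2 (1.12). In NHP1 its RPE level did not separate from that of the choroid (ratio 1.27, 0.182 to 14.1). In NHP2 the RPE level of IRF7 was 2.71 times that of the inner nuclear layer, with an interval of 0.836 to 8.55 that includes equality. IFNAR2 was found in the inner nuclear and ganglion spots of both sections, with 6 and 3 UMIs in NHP1 and 5 and 2 in NHP2, and photoreceptor spots had 6 UMIs in NHP1 and 0 in NHP2.

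**Figure D3:**
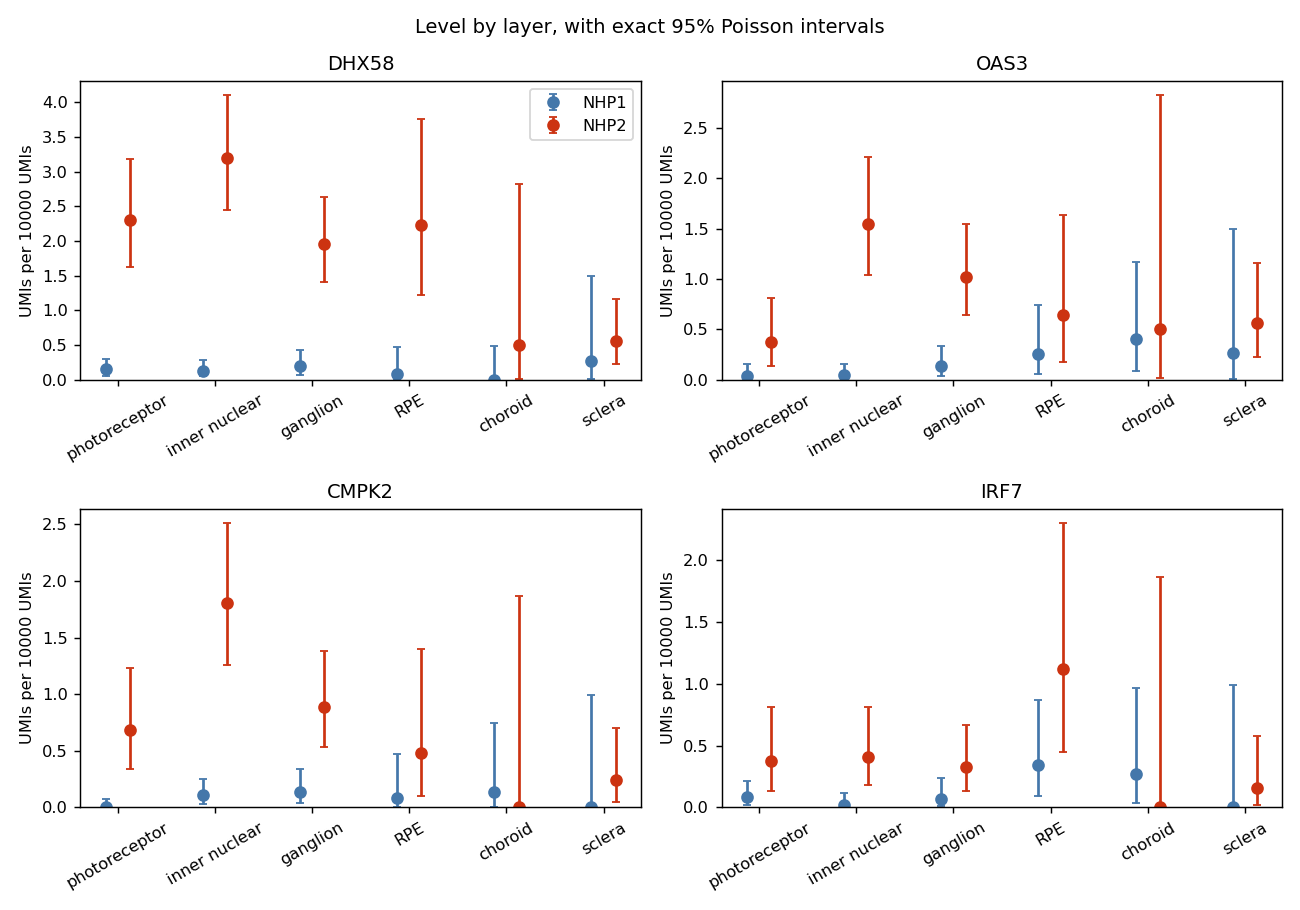
Level of DHX58, OAS3, CMPK2 and IRF7 in UMIs per 10000 UMIs by marker class in the NHP1 section (blue) and the NHP2 section (red), with exact 95% Poisson intervals. DHX58, OAS3 and CMPK2 are highest in the inner nuclear spots of NHP2 and IRF7 in its RPE spots, while the choroid intervals of NHP2 are wide because these spots held few UMIs.

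The retina and the outer layers stood in opposite order in the sections. In NHP1 the sum of the 7 genes was 0.477 per 10000 in the neural retina and 0.871 in the outer layers, a ratio of 0.548 (0.325 to 0.961). In NHP2 it was 5.43 and 2.52, a ratio of 2.16 (1.6 to 2.95). The outer layers differed in make-up, since sclera spots held 37151 of their 229572 UMIs in NHP1 and 124425 of 206756 in NHP2. Within NHP2 the sclera stood at 1.77 per 10000 and the RPE at 4.47. The photoreceptor level did not separate from that of the RPE (ratio 0.878, 0.555 to 1.42). The part of this make-up in the order was not tested. OAS3 and IRF7 were lower in the retina of NHP1 (ratios 0.212, 0.0673 to 0.688, and 0.217, 0.0624 to 0.781). They were the 2 of 5 measurable genes at least 2-fold lower, beside 13.3% of 9194 genes. None of the 5 was at least 2-fold higher there, beside 21.5%. In NHP2 DHX58 (2.33, 1.48 to 3.83), DDX60 (2.91, 0.683 to 26.0) and CMPK2 (3.93, 1.71 to 11.1) were at least 2-fold higher in the retina, beside 26.5% of 8017 genes, while IRF7 was not (0.847, 0.372 to 2.1). These are 3 of 5 measurable genes, and none was at least 2-fold lower, beside 14.5% of all genes. Under Leiden regions in place of the marker classes the IRF7 ratio in NHP2 was 4.27 (1.08 to 37.0), so its place between retina and outer layers depends on how the spots are assigned. Within the tissue piece of NHP1 with the most UMIs the ratio of the sum was 1.11 (0.405 to 4.26), which does not keep the order.

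Several of the genes were often detected in the same spots of the NHP2 retina. Of its 72 spots, 40 (55.6%, exact binomial interval 43.4 to 67.3) had a UMI of any of the 7 genes, 28 had at least 2 of the genes and 1 spot had 6 of them. In NHP1, 48 of 316 retinal spots (15.2%, 11.4 to 19.6) had a UMI, 6 had 2 of the genes and none had more. Detection went with depth, since tissue spots with a UMI of the group had a median of 2776 UMIs in NHP2 and 4425 in NHP1, and those without 279 and 1252. Its part in the joint detection was not tested. When each spot was thinned to 500 UMIs, 12 of 60 retinal spots of NHP2 (20%, 10.8 to 32.3) and 5 of 300 of NHP1 (1.67%, 0.543 to 3.85) kept a UMI, with 12 and 16 shallower spots left out. In the outer layers the thinned shares were 11.6% in NHP2 and 4.76% in NHP1.

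Most of the UMIs in NHP2 came from 1 of the pieces of tissue on the capture area. This piece of 231 spots held 349 of the 369 UMIs (4.91 per 10000, 4.41 to 5.45), and it also held 63 of the 72 retinal spots. The other large piece, of 236 spots, had 20 UMIs (2.12, 1.29 to 3.27), and its 9 retinal spots had 2. Along the strip of the first piece the level in retinal spots was 5.96 per 10000 (5.25 to 6.74) in the first of 3 equal lengths, 4.26 (3.14 to 5.64) in the middle and 1.31 (0.158 to 4.72) in the last, a split chosen after the map was seen. The median depth of those spots moved the same way, at 11175, 2185 and 876 UMIs, and its part in the result was not tested. In NHP1 the retinal level was 0.483 and 0.484 per 10000 in the pieces of 255 and 228 spots. The 5 spots with the most UMIs of the 7 genes held 31.7% of them in NHP2, beside 20.1% of all UMIs of its tissue. In the authors' table, Moran's I, a score of how far neighbouring spots resemble each other, was 0.104 for IRF7 in NHP2, above that of 97.7% of genes, and it was 0.0272 for CMPK2, 0.0223 for DHX58 and -0.0105 for OAS3.

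The wider pathway was described from a list of 91 genes grouped by role, of which 85 had a row and 56 reached 10 UMIs. At least 2-fold higher levels in NHP2 were found for 34 of the 56 and at least 2-fold lower levels for 0, beside 7.12% and 6.48% of all 9996 genes. The counts by role below stand beside the same shares. Among sensors and adaptors of viral RNA 3 of 6 were higher, and of these 3 only EIF2AK2 had an interval clear of equality. EIF2AK2, the kinase PKR that halts translation on double-stranded RNA, had 3 and 19 UMIs (ratio 11.7, 3.44 to 61.6). By contrast, the ligase TRIM25 had 92 and 79 UMIs (1.58, 1.16 to 2.16) and the kinase TBK1 45 and 35 (1.43, 0.894 to 2.28). RIGI, the founding helicase of the family of DHX58, had 0 and 9 UMIs. None of 3 sensors of DNA was past 2-fold, with IFI16 at 35 and 34 UMIs (1.79, 1.08 to 2.96), STING1 at 17 and 12 (1.30, 0.567 to 2.89) and TREX1 at 9 and 7 (1.43, 0.454 to 4.32).

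Of the 2-5A system beyond OAS1 and OAS3, OAS2 alone was past 2-fold among 4 genes, with 3 and 37 UMIs (ratio 22.7, 7.20 to 115), and 32 of the latter were in the retina. PDE12, which degrades 2-5A, and ABCE1, an inhibitor of RNase L, had ratios of 1.18 (0.757 to 1.83) and 1.05 (0.699 to 1.55). RSAD2, the neighbour of CMPK2 in the genome that makes an antiviral nucleotide, had 4 and 11 UMIs (5.07, 1.5 to 21.8). SAMHD1, which breaks down nucleotides, had 15 and 15 (1.84, 0.839 to 4.05).

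Among receptors and their kinases, IFNAR1, the partner chain of IFNAR2, had 99 and 54 UMIs (ratio 1.01, 0.708 to 1.41), IFNGR1 95 and 47 (0.912, 0.629 to 1.31) and JAK1 191 and 111 (1.07, 0.840 to 1.36), and 1 of the 6 measurable genes, JAK2, was past 2-fold (2.40, 1.45 to 3.99). IFNGR2 had 66 and 68 UMIs (1.90, 1.33 to 2.71). The median ratio of this role was 1.20, and that of its summed UMIs was 1.24 (1.08 to 1.41). Of 8 measurable transcription factors, 4 were past 2-fold in NHP2. The median ratio of the 8 was 2.27 and the lowest was 0.582. Among the 4 were IRF9, with 56 and 266 UMIs (8.75, 6.54 to 11.9), and STAT2, with 88 and 129 (2.70, 2.04 to 3.58). Of 5 measurable negative regulators, 2 were past 2-fold, and the median ratio was 1.25. These were USP18 with 2 and 43 UMIs (39.6, 10.3 to 338) and NLRC5 with 3 and 42 (25.8, 8.24 to 130), whereas NLRX1 had 31 and 21 (1.25, 0.682 to 2.24).

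All 22 measurable effectors of interferon were at least 2-fold higher in NHP2, with a median ratio of 11.2 and a range of 2.49 to 39.5. MX1, a GTPase that blocks viruses, had 37 and 794 UMIs, and ISG15, a ubiquitin-like modifier, had 37 and 733. Of the 9 ligands and chemokines with a row, 7 were at 0 in both sections, among them IFNB1, IFNG and CXCL10. IFNL1 had 1 and 4 UMIs and CCL5 0 and 4. The listed IFIH1, IL10RB, IFNE, IFITM1, IFITM2 and IFITM3 were not analysed here.

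**Figure D4:**
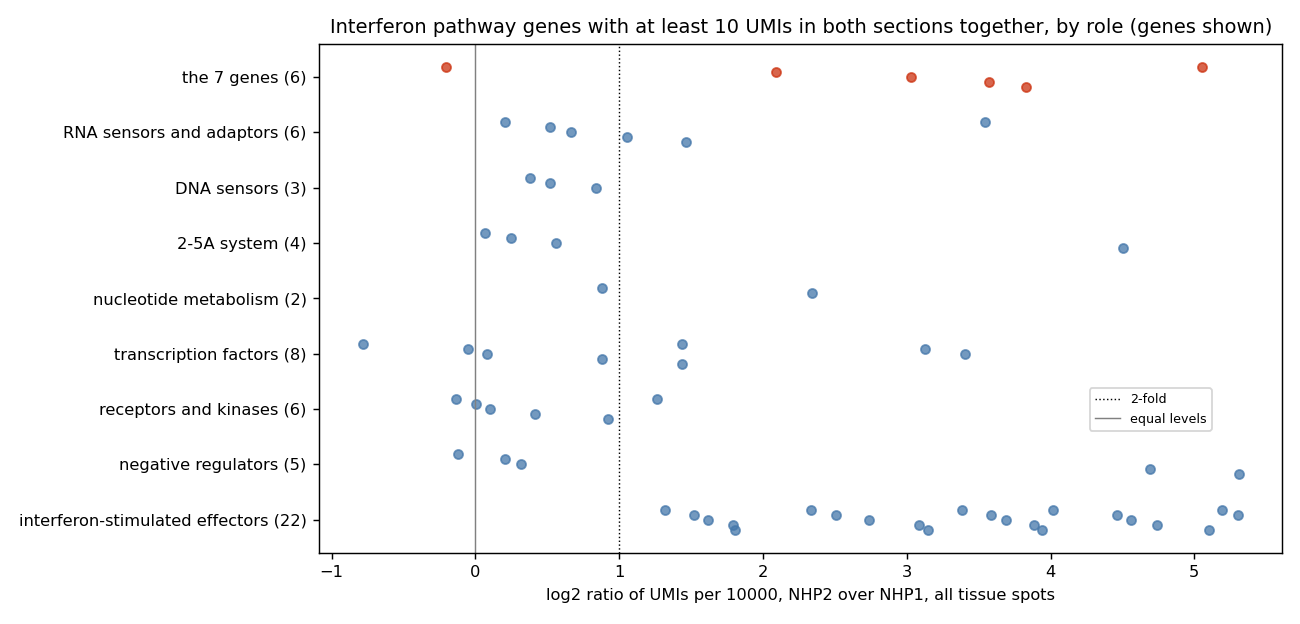
Log2 ratio of UMIs per 10000 in NHP2 over NHP1 across all tissue spots, 1 point per gene with at least 10 UMIs over both sections, by role, with the 6 measurable genes of the group in red; the dotted line is 2-fold and the grey line equality. All effectors lie beyond 2-fold, whereas receptors and kinases, with a median ratio of 1.20, and DNA sensors lie mostly between both lines.

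Among the genes whose levels followed the summed 7 most closely over the 12 layers of both sections were IRF9 (Pearson's r 0.95), HERC6 (0.926), IFIT1 (0.912), IFIT3 (0.911), IFI6 (0.898), MX1 (0.893), ENSMMUG00000041764 (0.891), KCNH7 (0.877) and ISG15 (0.840). KCNH7 and ENSMMUG00000041764 are not on the pathway list. The median r over 6702 genes was 0.0780. The points share 2 libraries, so a difference between the sections alone raises r. Within the group, CMPK2 followed the sum of the other 6 genes with r of 0.881, DHX58 with 0.781, OAS3 with 0.761, DDX60 with 0.721 and IRF7 with 0.676, whereas IFNAR2 had -0.00803 and OAS1 0.0797.

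Markers of immune cells were listed to show what else moved with the group. The 15 genes of mononuclear phagocytes, among them C1QA, C1QB, CSF1R and CD74, summed to 2.18 per 10000 in the retina of NHP1 and 4.37 in that of NHP2. In the outer layers they summed to 22.3 and 17.3. Of the 11 that reached 10 UMIs, 2 were at least 2-fold higher in NHP2 over all tissue and 2 at least 2-fold lower, beside 7.12% and 6.48% of all 9996 genes. The higher were the microglial marker P2RY12 (2 and 11 UMIs, 10.1, 2.21 to 94.1), with 1 and 8 of these UMIs in the retina, and ITGAM (4 and 8 UMIs, 3.69, 0.987 to 16.7), and the lower were CD163 and MRC1. In the retina alone C1QA (2.69, 1.54 to 4.76), C1QB (2.04, 1.19 to 3.46) and C1QC (3.26, 1.58 to 6.92) were also at least 2-fold higher in NHP2, beside 5.66% of 9409 genes. CD74 had a ratio of 1.86 (1.44 to 2.39) there. By contrast, CSF1R (1.19, 0.517 to 2.61), TYROBP (1.30, 0.389 to 3.96) and CD68 (1.38, 0.454 to 3.90) did not separate, and CD163 had a ratio of 0.482 (0.0507 to 2.33). Over all tissue the summed ratio of the 15 genes was 1.47 (1.33 to 1.63). Within NHP2 they ranged from 2.68 per 10000 in photoreceptor spots to 38.0 in choroid spots. Of 9 lymphocyte genes CD3D, CD3E, CD2 and FOXP3 were at 0 in both sections, and the list summed to 0.259 and 0.650 per 10000 in the retina, mostly from JCHAIN. Of plasmacytoid dendritic cells, which are rich in IRF7, the marker CLEC4C was at 0, and the 4 listed genes had 12 UMIs in the retina of NHP1 and 0 in that of NHP2. In the outer layers they had 6 (0.261 per 10000) and 15 (0.725). Of these UMIs, 11 in the NHP1 retina and all 15 in the NHP2 outer layers were of TCF4, a gene that also led the sclera spots of NHP2. The part of these cells in the levels of the 7 genes was not tested.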

How the data were processed

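Visium libraries of 2 sections, 1 per animal, were analysed. The authors aligned reads and counted UMIs with Space Ranger 2.1.0 against Mmul_10 with added transgenes. The deposited files hold raw UMI counts per spot, tissue marks, and the authors' table with Moran's I, a score, whose p-values were not used. Counts of tissue spots were summed by section and layer and divided by all UMIs (per 10000). Layers were marker classes with at least 3 marker UMIs in a spot. Intervals are exact 95% Poisson, Clopper-Pearson or conditional binomial intervals (SciPy 1.17.1). Called genes were at least 2-fold apart with at least 10 UMIs in both groups together. Groups were the animals of the labels, and no test was possible with 1 section each. The ratio step was tested on simulated counts. Promoters came from RefSeq on Mmul_10. The members, lists and rules were chosen with earlier results of these data known, and the 3 pathway genes of each role with the most UMIs and the 10 genes most like the summed members over the layers were named, except for 1 gene that is not reported here, and with RIGI, DDX60L, JAK2, IFNGR2, IFNB1, IFNG and the immune markers named after their values were seen. Spot barcodes are those of the array and are shared by design. Alternatives covered layer rules, spot depth, abundant genes, thresholds and tissue pieces.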

Additional observations from a re-analysis of the deposited data

Results flagged for a closer look

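The summed level of the 7 genes in the neural retina over that in the outer layers was 0.548 in NHP1 and 2.16 in NHP2. It stood out because the retina was the lower of the regions in the first section and the higher in the other. The difference was not tested, since each animal gave 1 section, and in the NHP1 piece with the most UMIs the ratio was 1.11 (0.405 to 4.26). Sclera spots held 37151 of the 229572 outer UMIs in NHP1 and 124425 of 206756 in NHP2, so the outer layers were unlike in make-up.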

How the results depend on the processing

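No paired analysis was possible because each animal gave 1 section, so that no groups share replicate pairs. Of 197 values under alternatives, 182 stayed within the 95% interval of the main value (for counts, within 1.5 times) and 15 did not. Among values of the sum, counts and shares of spots, 36 stayed and 10 did not. Among single genes 146 stayed and 5 did not, but their intervals were often so wide that staying inside says little. No ratio of at least 2-fold changed direction. As a mean over tissue spots with at least 200 UMIs, the ratio of the summed 7 genes was 3.84 (8.39 from summed UMIs). In this mean DHX58 was 5.93, OAS3 2.99, CMPK2 4.38 and DDX60 56.6. In the piece with the most UMIs, an alternative chosen after seeing the data, the outer-layer ratio was 6.25 (2.25 to 24.1) and the NHP1 ratio of retina to outer layers 1.11, on the other side of equality from its 0.548. Under Leiden regions the NHP2 ratio of retina to outer layers was 3.0 for the sum and 4.27 or 4.31 for IRF7 (0.847 by marker classes), at the higher and lower resolution. At the higher resolution no NHP2 region had the inner nuclear class, so the inner nuclear peak had no counterpart there. With a minimum of 50 UMIs, 3 of 3 measurable genes of the group and 18 of 31 of the pathway were at least 2-fold higher, beside 3.59% of all genes. Without the 5 spots with the most UMIs of the group the IRF7 ratio was 7.88 over all tissue and 11.5 in the retina. Spots with a UMI were 12.7% in NHP1 and 18.5% in NHP2, with at least 2 UMIs 1.5% and 8.72%, and thinned to 500 UMIs 2.52% and 13.2%. The causes were not tested. Over the alternatives the ratio was 5.93 to 18.1 for DHX58, 22.1 to 56.6 for DDX60, 2.99 to 15.8 for OAS3, 4.38 to 21.0 for CMPK2, 2.72 to 11.5 for IRF7 and 0.456 to 1.14 for IFNAR2. For DHX58 and OAS3 in NHP1 and for DDX60 some values could not be had because a side held 0 UMIs.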
